A study of Homo sapiens with 9 samples.

Results

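The genes described here encode the translation initiation factors and the kinases of eIF2. They were chosen by symbol: every gene of the probe annotation whose name begins with EIF and a number, leaving out the EIF4EBP genes, a pseudogene (EIF3IP1) and a noncoding divergent transcript (EIF3J-DT). This gave 47 members of 18354 genes, each read by its brightest probe. Of these, 45 passed the filter on dim probes and were tested, and 2, EIF1AY and EIF5AL1, lay below it. EIF1AD, EIF2S1, EIF2S3B, EIF2AK4, EIF3C and EIF4G3 were not analysed here, so the alpha subunit of eIF2 and the amino acid-sensing kinase GCN2 are missing from what follows.

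Initiation begins when eIF2, carrying GTP and the initiator tRNA, joins the small ribosomal subunit together with eIF1, eIF1A, eIF3 and eIF5, and the eIF4F complex brings this assembly to the cap of the mRNA. After start codon recognition eIF2 is released with GDP and has to be recharged by its exchange factor eIF2B. Stress kinases phosphorylate the alpha subunit of eIF2, which blocks eIF2B, lowers general translation and favours the translation of a few mRNAs such as that of ATF4; lack of amino acids is a classic trigger.

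The cells were HeyA8 (Hey8A in some labels), an established human ovarian cancer line, profiled on Illumina bead arrays. The 3 groups of 3 arrays were monoculture in complete medium, monoculture in medium without glutamine, and coculture in medium without glutamine, in which cancer-associated fibroblasts were seeded on well inserts 1 day after the cancer cells. Fresh medium was given on day 4 and RNA was taken after 24 h. Fibroblasts with fed cancer cells were not analysed here. The labels do not say whether arrays of a group came from separate experiments, so p-values measure only the spread between these arrays, which may be technical. In such RNA, fewer cells of a state and less RNA per cell cannot be told apart.

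Levels are given as deposited, on a scale like log2 on which unexpressed probes gather near 7.39, and folds treat it as log2. Arrays of a group correlated at 0.996 to 0.998 over all probes, against 0.960 to 0.963 between the monocultures. The ovarian marker PAX8 (9.23 in complete medium) and the keratins KRT7 and KRT8 were present in the line, while EPCAM (7.80) was dim and CDH1, MUC1 and MUC16 lay at the floor. All 8 epithelial and ovarian markers tested were lower without glutamine, and the summed level of the list of 11 was 92.7 to 93.6 in complete medium, 88.0 to 88.6 without glutamine and 90.2 to 90.9 in coculture; their part in the results below was not tested. Of 16 fibroblast markers 10 had a mean within the floor, among them COL1A2, COL3A1 and DCN. Of the 6 tested, ACTA2 was higher without glutamine (log2 difference 1.54) and lower in coculture than in deprived monoculture (-0.60). COL5A2, FAP and FBLN1 went the other way, with -0.63, -0.41 and -0.80 without glutamine and 0.17, 0.24 and 0.39 in coculture, and COL1A1 and COL6A3 were not called in either; their part in the results below was not tested. The summed level of the 16 was 123.9 in complete medium, 123.4 to 123.5 in deprived monoculture and 123.6 to 123.8 in coculture.

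Without glutamine, initiation factor genes moved in both directions and mostly by small amounts, with a few large rises. Of 45 members tested, 18 were higher and 6 lower (limma, adjusted p under 0.05). Over all 10862 genes 54.3% were called, 30% higher and 24.3% lower, so the 24 members called (53.3%) are about the background share. The median log2 difference of the members was 0.01, against 0.02 for all genes. The differences of the members ran from -0.41 to 1.45 and those of all genes from -4.18 to 4.21. Such ranges widen with the number of genes, so they do not compare the sets. Where the larger group mean also had to be at least 25% above the smaller, 11 members were higher and 2 lower, against 15.6% and 13.4% of all genes. The arrays of the monocultures did not overlap for 28 members, against 58.5% of all genes. The members with the largest rises were EIF1B, EIF6, EIF5A2 and EIF1.

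**Figure D1:**
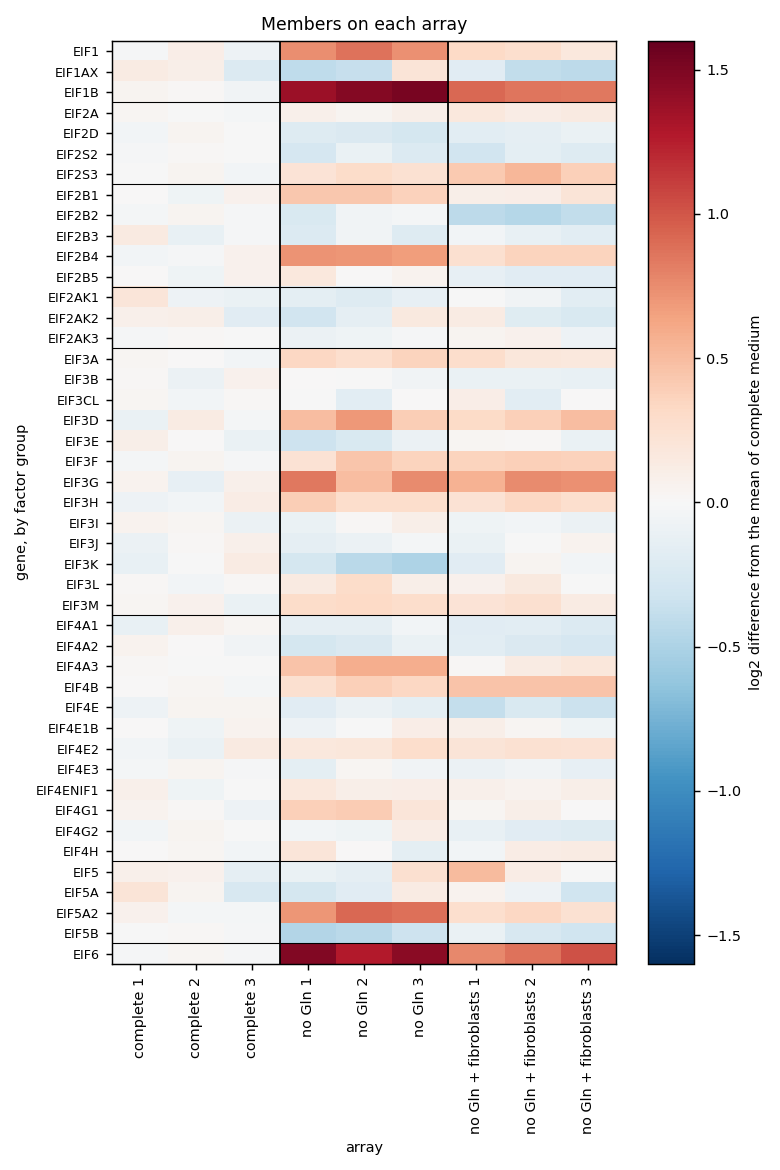
Each row is a tested member, grouped by factor, and each column an array; the colour gives the log2 difference from the member's mean in complete medium. EIF1B and EIF6 are the darkest rows in deprived monoculture and are paler in coculture, while EIF3G keeps its colour in both deprived groups.

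EIF1 and EIF1B both rose without glutamine, while their partner EIF1AX was not called with all arrays. EIF1, which keeps the scanning ribosome open until a start codon is found, read 11.51, 11.65 and 11.45 in complete medium, 12.28, 12.41 and 12.27 without glutamine, and 11.86, 11.80 and 11.70 in coculture. EIF1B, its close paralog, read 10.84, 10.81 and 10.74, then 12.16, 12.26 and 12.31, then 11.71, 11.65 and 11.64 in the same order. For both genes the 3 groups did not overlap, and coculture lay between the monocultures. EIF1B was 2.73-fold higher without glutamine (log2 difference 1.45, SE 0.061, limma adjusted p = 6.09e-14), and EIF1 was 1.72-fold higher (0.79, SE 0.067, adjusted p = 4.12e-09). Coculture lowered them against deprived monoculture, by 0.57 (EIF1B, adjusted p = 5.64e-07) and 0.53 (EIF1, adjusted p = 4.61e-06) on the log2 scale. Whether the probes of the paralogs pick up each other's RNA was not tested.

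EIF6, which binds the large ribosomal subunit and keeps it from joining too early, rose almost as much as EIF1B. It read 10.83, 10.89 and 10.84 in complete medium, 12.33, 12.12 and 12.29 without glutamine, and 11.62, 11.72 and 11.87 in coculture. Again no array of a group reached the range of another. The rise without glutamine was 2.63-fold (log2 difference 1.40, SE 0.071, limma adjusted p = 1.25e-12), and the level was 1.43-fold lower in coculture (-0.51, SE 0.071, adjusted p = 1.56e-05).

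The eIF5 group went several ways. EIF5A2, the less widely expressed form of the hypusine-containing factor eIF5A and a gene known for amplification in ovarian cancer, read 8.17, 8.07 and 8.07 in complete medium. It read 8.82, 9.02 and 8.98 without glutamine and 8.37, 8.44 and 8.35 in coculture, with no overlap between groups. This was a 1.78-fold rise (limma adjusted p = 7.67e-10) and a 1.47-fold fall in coculture (adjusted p = 1.55e-06). EIF5A itself, the abundant form, read 11.54, 11.38 and 11.08 in complete medium and 11.05, 11.15 and 11.46 without glutamine, so the arrays overlapped widely (log2 difference -0.11, 95% interval -0.35 to 0.12, adjusted p = 0.427). EIF5B, the GTPase that joins the subunits, was the member with the largest fall: 9.45, 9.46 and 9.43 in complete medium against 8.97, 9.01 and 9.11 without glutamine (1.33-fold lower, adjusted p = 2.08e-05). In coculture EIF5B read 9.34, 9.19 and 9.13, between the monocultures. EIF5, which makes eIF2 hydrolyse its GTP, did not pass the test for deprivation (0.00, 95% interval -0.23 to 0.24, adjusted p = 0.994). EIF5AL1, a near copy of EIF5A, stayed between 7.39 and 7.48 on every array.

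**Figure D2:**
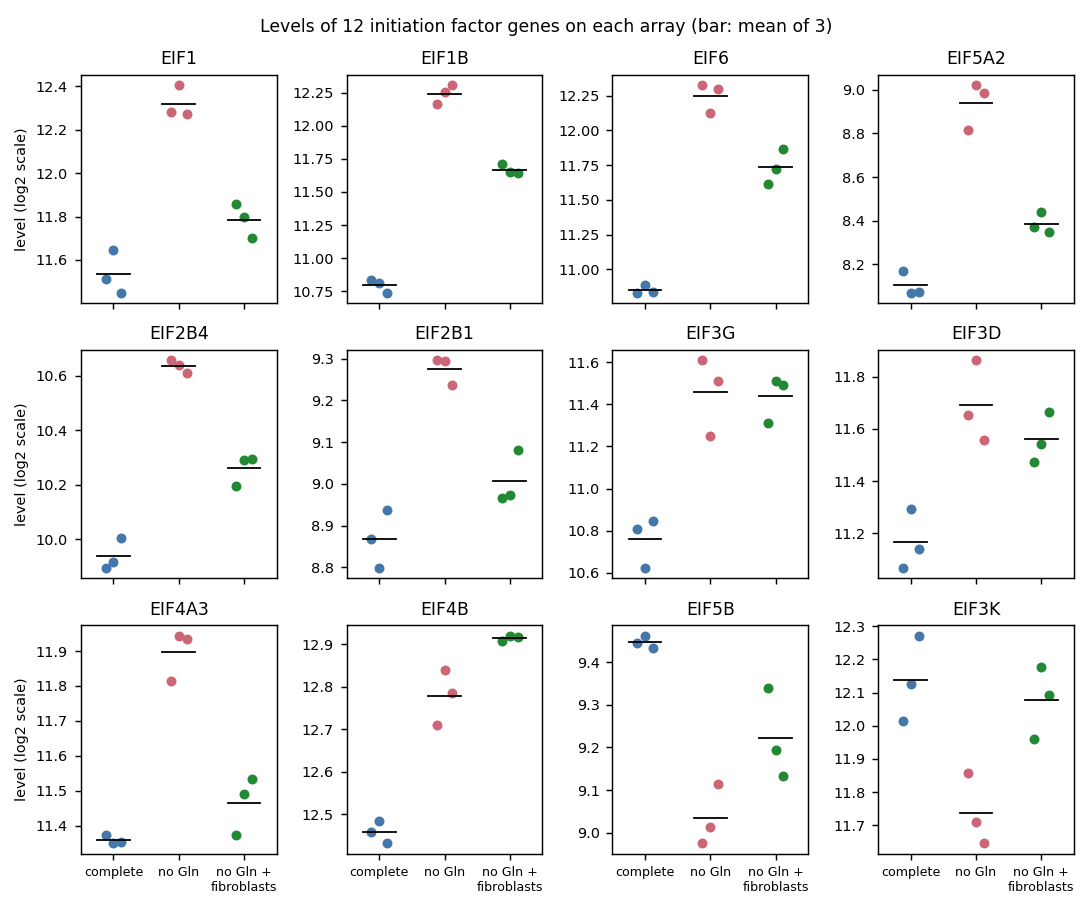
Levels of 12 members on each array, with a bar at the mean of each group; the vertical axes differ between panels and do not start at 0. EIF1, EIF1B, EIF6, EIF5A2 and EIF2B4 show coculture between the monocultures, EIF3G and EIF3D show both deprived groups above complete medium, and EIF5B and EIF3K are lowest without glutamine.

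The recharging of eIF2 involves eIF2 itself, the 5 subunits of eIF2B and the kinases. EIF2B4, the delta subunit of the regulatory part of eIF2B, read 9.90, 9.92 and 10.01 in complete medium, 10.66, 10.64 and 10.61 without glutamine and 10.20, 10.29 and 10.29 in coculture. EIF2B1, the alpha subunit to which phosphorylated eIF2 binds, read 8.87, 8.80 and 8.94, then 9.30, 9.29 and 9.24, then 8.97, 8.97 and 9.08. In both genes every deprived monoculture array lay above every array of the other groups. EIF2B4 was 1.62-fold higher without glutamine (limma adjusted p = 6.88e-09) and EIF2B1 1.33-fold higher (adjusted p = 1.14e-05).

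The remaining eIF2B subunits did not pass the test for deprivation. EIF2B2, the beta subunit, read 9.93, 10.01 and 9.94 in complete medium and 9.72, 9.91 and 9.93 without glutamine (log2 difference -0.11, adjusted p = 0.187). EIF2B5, the catalytic epsilon subunit, read 8.73, 8.67 and 8.80 and then 8.91, 8.74 and 8.79 (0.08, adjusted p = 0.307). EIF2B3, the gamma subunit, read 9.68, 9.41 and 9.52 and then 9.32, 9.48 and 9.33 (-0.16, adjusted p = 0.0755). EIF2B3 missed the threshold with all arrays, but was called without complete medium array 2 (-0.22, adjusted p = 0.0259) and without deprived monoculture array 2 (-0.21, adjusted p = 0.035).

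In coculture 4 of the 5 eIF2B subunits were lower than in deprived monoculture and 0 were higher, where 15.1% of all genes were lower. EIF2B2 read 9.54, 9.51 and 9.56 and EIF2B5 8.61, 8.55 and 8.55 in coculture, below every array of both monocultures. The log2 differences from deprived monoculture were -0.38 for EIF2B4, -0.31 for EIF2B2, -0.27 for EIF2B1 and -0.24 for EIF2B5 (limma adjusted p = 0.000106, 0.0013, 0.0025 and 0.00609). EIF2B3 read 9.50, 9.42 and 9.36 in coculture, overlapping the deprived monoculture (0.05, adjusted p = 0.678, 95% interval -0.10 to 0.20).

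Of the eIF2 subunits measured, beta and gamma moved in opposite directions. EIF2S2, the beta subunit, read 8.06, 8.10 and 8.07 in complete medium, 7.81, 7.97 and 7.86 without glutamine and 7.77, 7.92 and 7.86 in coculture. EIF2S3, the gamma subunit that holds GTP and the initiator tRNA, read 10.04, 10.09 and 10.00, then 10.26, 10.34 and 10.29, then 10.46, 10.57 and 10.43. The levels of EIF2S2 in the deprived groups overlapped each other and lay below complete medium, whereas those of EIF2S3 rose from group to group without overlap. EIF2S2 was 1.15-fold lower without glutamine (limma adjusted p = 0.00452) and EIF2S3 1.19-fold higher (adjusted p = 0.00186). Each rests on 1 probe, and that of EIF2S2 was dim, with a mean of 7.94, below the stricter filter on dim probes (7.98). In coculture EIF2S3 was a further 0.19 higher on the log2 scale (adjusted p = 0.0265). This last difference missed the threshold when deprived monoculture array 1 (0.17, adjusted p = 0.0787) or array 3 (0.19, adjusted p = 0.0505) was left out, and also without coculture array 2 (0.15, adjusted p = 0.144).

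EIF2A and EIF2D share the name but are not subunits of eIF2; both can deliver initiator tRNA in other ways. EIF2D fell by 0.24 on the log2 scale without glutamine (limma adjusted p = 0.00137), and EIF2A differed by 0.07 (95% interval -0.05 to 0.20).

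None of the 3 eIF2 kinases measured was called in any of the comparisons at adjusted p under 0.05 with all arrays and the main settings. EIF2AK1, the heme-regulated kinase that also relays mitochondrial stress, read 11.46, 11.20 and 11.17 in complete medium, 11.12, 11.07 and 11.14 without glutamine and 11.27, 11.22 and 11.10 in coculture. The deprived monoculture arrays lay just below complete medium and overlapped coculture, and the difference without glutamine was -0.17 (95% interval -0.32 to -0.01, limma adjusted p = 0.0694). It was called with quantile normalization (-0.19, adjusted p = 0.041) and without complete medium array 3 (-0.22, adjusted p = 0.0286). Over all alternatives the difference ran from -0.22 to -0.02. The second, dimmer probe of EIF2AK1 (mean 7.78) went the other way, with 0.13.

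EIF2AK2, the double-stranded RNA kinase PKR, read 9.72, 9.74 and 9.46, then 9.34, 9.50 and 9.79, then 9.77, 9.44 and 9.40, so its groups overlapped. The difference without glutamine was -0.10 (95% interval -0.32 to 0.12). PKR is induced by interferon. Of 15 tested interferon-stimulated genes 6 were higher and 2 lower without glutamine, against 30% and 24.3% of all genes, and their summed level over 21 genes was 164.4 to 164.5 in complete medium and 166.2 to 166.7 without glutamine. EIF2AK3, the endoplasmic reticulum kinase PERK, stood close to the floor at 7.59, 7.63 and 7.60, then 7.52, 7.53 and 7.59, then 7.66, 7.67 and 7.52, where a difference is hard to detect (-0.06, 95% interval -0.16 to 0.03).

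The eIF3 complex, the largest initiation factor and the scaffold on the small subunit, had 7 of 13 tested members higher and 2 lower without glutamine, against 30% and 24.3% of all genes, with a median log2 difference of 0.17. The mean over the 13 differed from complete medium by 0.145, 0.142 and 0.149 on the deprived arrays and by 0.130, 0.167 and 0.143 on the coculture arrays. EIF3G, an RNA-binding subunit at the periphery, rose most: 10.81, 10.62 and 10.84 in complete medium, 11.61, 11.25 and 11.51 without glutamine and 11.31, 11.51 and 11.49 in coculture. EIF3D, which can itself bind the cap of some mRNAs, read 11.07, 11.29 and 11.14, then 11.65, 11.86 and 11.56, then 11.47, 11.54 and 11.67. For both genes the deprived groups overlapped each other and lay above complete medium. The rises without glutamine were 1.62-fold for EIF3G (limma adjusted p = 7.56e-07) and 1.44-fold for EIF3D (adjusted p = 1.15e-05).

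The other rises within eIF3 were those of EIF3F (log2 difference 0.34), EIF3A (0.32), EIF3H (0.32), EIF3M (0.30) and EIF3L (0.17). EIF3A is the large subunit on which the complex is built, and EIF3F and EIF3H carry its MPN domains. EIF3L was not called without complete medium array 2 (0.15, adjusted p = 0.0827) or without deprived monoculture array 2 (0.11, adjusted p = 0.159). EIF3K and EIF3E, both of the core around EIF3A, went the other way. EIF3K read 12.01, 12.12 and 12.27 in complete medium, 11.86, 11.71 and 11.65 without glutamine and 11.96, 12.18 and 12.09 in coculture. It was 1.32-fold lower without glutamine (limma adjusted p = 0.000155), with no overlap, and 1.26-fold higher in coculture (adjusted p = 0.0021), where it overlapped complete medium.

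EIF3E fell by 0.22 without glutamine (limma adjusted p = 0.00694), although its highest deprived array, 13.90, exceeded the lowest array in complete medium, 13.89. Its rise in coculture (0.20, adjusted p = 0.0256) was not called without deprived monoculture array 1 (0.15, adjusted p = 0.133) or array 2 (0.19, adjusted p = 0.0772), nor without coculture array 1 (0.18, adjusted p = 0.0945) or array 2 (0.19, adjusted p = 0.09). EIF3B, EIF3I, EIF3J and EIF3CL did not pass the test in any comparison. EIF3CL is a near copy of EIF3C, so its probe may not tell them apart, and it lay close to the floor (7.46 to 7.74). Apart from EIF3K and EIF3E, none of the 13 was called in coculture against deprived monoculture; for EIF3G the difference was -0.02 (95% interval -0.20 to 0.16) and for EIF3F 0.03 (-0.10 to 0.16).

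The eIF4 factors bind the cap and unwind the leader of the mRNA. Of 12 tested members 4 were higher and 1 lower without glutamine, against 30% and 24.3% of all genes, with a median log2 difference of 0.01. EIF4A3, the helicase of the exon junction complex that acts in the nucleus and in mRNA surveillance, read 11.37, 11.35 and 11.35 in complete medium, 11.81, 11.94 and 11.94 without glutamine and 11.37, 11.49 and 11.53 in coculture. The deprived monoculture arrays stood apart, 1.45-fold above complete medium (limma adjusted p = 3.4e-07) and 1.35-fold above coculture (adjusted p = 2.61e-05). EIF4G1, the scaffold of eIF4F, followed the same order with smaller steps: 10.86, 10.81 and 10.72, then 11.18, 11.20 and 10.99, then 10.83, 10.89 and 10.81. It was higher without glutamine by 0.32 on the log2 scale (adjusted p = 0.00041) and 1.22-fold lower in coculture (adjusted p = 0.00384), where it overlapped complete medium.

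EIF4B, a cofactor of the eIF4A helicase and a substrate of S6 kinase, rose without glutamine and was highest in coculture. It read 12.46, 12.48 and 12.43 in complete medium, 12.71, 12.84 and 12.78 without glutamine and 12.91, 12.92 and 12.92 in coculture, with no overlap. The rise without glutamine was 0.32 on the log2 scale (limma adjusted p = 5.1e-05). The further difference in coculture was 0.14 (95% interval 0.02 to 0.25) and missed the threshold (limma adjusted p = 0.0727). It passed with quantile normalization (0.20, adjusted p = 0.00629) and, at 0.14, with the stricter filter on dim probes (adjusted p = 0.049). It also passed with the mean of probes per gene (adjusted p = 0.0475) and without the trend (adjusted p = 0.0411). EIF4E2, a cap-binding protein that represses translation, was 1.16-fold higher without glutamine (adjusted p = 0.0137). It was not called without complete medium array 1 (0.19, adjusted p = 0.0528), without complete medium array 2 (0.16, adjusted p = 0.0867) or without deprived monoculture array 3 (0.18, adjusted p = 0.0548).

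Of the helicases of eIF4F and the cap-binding protein, EIF4A2 alone was called for deprivation with the main settings, and it was lower. EIF4A2 read 13.28, 13.23 and 13.17 in complete medium, 12.95, 13.00 and 13.13 without glutamine and 13.05, 12.99 and 12.96 in coculture, which was 1.15-fold lower without glutamine (limma adjusted p = 0.00652). EIF4A1, the major helicase of eIF4F, read 13.83, 14.03 and 13.98, then 13.80, 13.80 and 13.90, then 13.77, 13.78 and 13.72. EIF4E, which holds the cap, read 9.09, 9.22 and 9.21, then 8.99, 9.09 and 9.02, then 8.80, 8.93 and 8.83. The deprived arrays of EIF4A1 overlapped complete medium, and those of EIF4E lay just below it.

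With all arrays and the main settings neither EIF4A1 (-0.11, limma adjusted p = 0.111) nor EIF4E (-0.14, adjusted p = 0.0694) was called for deprivation. EIF4E was called with quantile normalization (-0.15, adjusted p = 0.0438) and without the trend (-0.14, adjusted p = 0.0424). The second bright probe of EIF4A1 went the other way (0.24). Without complete medium array 1 both were called (EIF4A1 -0.17, adjusted p = 0.0194; EIF4E -0.18, adjusted p = 0.0347). EIF4E was lower in coculture than in deprived monoculture (-0.18, adjusted p = 0.0417). It was not called without deprived monoculture array 2 (-0.15, adjusted p = 0.144) or array 3 (-0.18, adjusted p = 0.0634), nor without coculture array 1 (-0.15, adjusted p = 0.152) or array 3 (-0.17, adjusted p = 0.113). With the mean of its 4 probes, of which 3 lie near the floor, the difference was -0.04 (adjusted p = 0.505).

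EIF4G2, a relative of EIF4G1 that cannot bind EIF4E and serves cap-independent initiation, read 13.08, 13.18 and 13.13, then 13.09, 13.05 and 13.25, then 13.00, 12.95 and 12.92. Its coculture arrays were the lowest (-0.17 from deprived monoculture, limma adjusted p = 0.0374). This was not called without deprived monoculture array 3 (-0.11, adjusted p = 0.205), coculture array 2 (-0.17, adjusted p = 0.0946) or coculture array 3 (-0.15, adjusted p = 0.125), nor with the mean of its probes (-0.02, adjusted p = 0.803). EIF4H, which like EIF4B assists the helicase, and EIF4ENIF1, which carries EIF4E into the nucleus, were not called with all arrays and the main settings. For deprivation EIF4ENIF1 (0.13) was called higher with the stricter filter (limma adjusted p = 0.045) and without the trend (adjusted p = 0.0438). So it was with the mean of probes per gene (adjusted p = 0.0351) and without complete medium array 1 (0.17, adjusted p = 0.0289). EIF4H was called lower in coculture than in complete medium with the mean of its probes (-0.17, adjusted p = 0.0296). EIF4E3 and EIF4E1B, minor relatives of EIF4E, lay close to the floor (7.42 to 7.69).

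**Figure D3:**
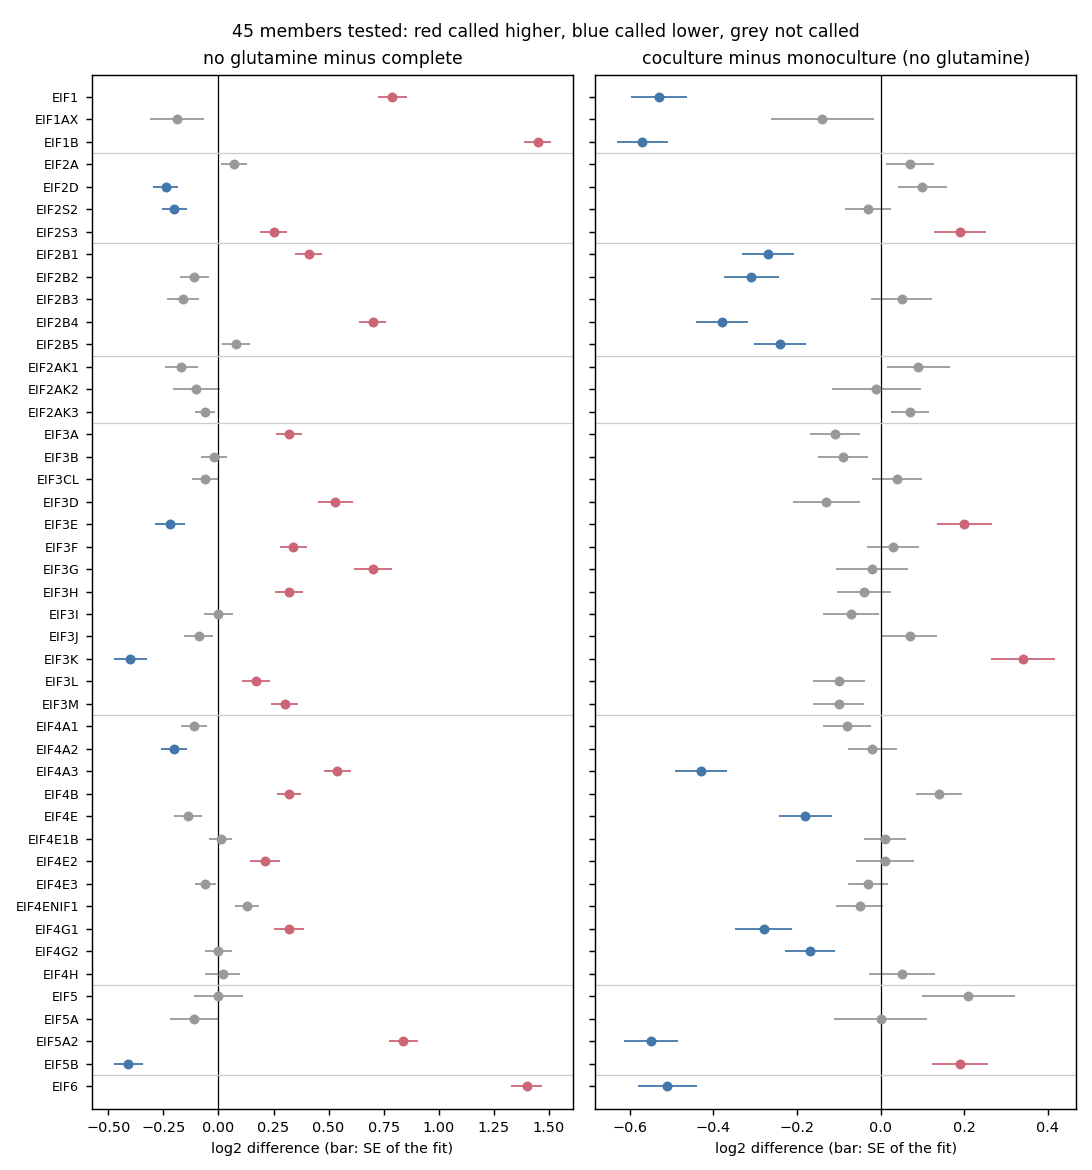
Log2 difference of each tested member without glutamine against complete medium (left) and in coculture against deprived monoculture (right); bars are the SE of the fit and colours the calls. The panels share the deprived monoculture arrays, so their points are not independent, and their horizontal scales differ. EIF1B and EIF6 lie farthest to the right on the left panel.

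Coculture was compared with deprived monoculture to ask what fibroblasts changed in cells without glutamine. Of 45 members 4 were higher and 12 lower, against 12.7% and 15.1% of all genes (27.8% in either direction). The arrays did not overlap for 21 members, against 39.9% of all genes. The 12 lower were EIF1, EIF1B, 4 subunits of eIF2B, EIF4A3, EIF4E, EIF4G1, EIF4G2, EIF5A2 and EIF6, and the 4 higher were EIF2S3, EIF3E, EIF3K and EIF5B. The count of higher members fell to 1 without deprived monoculture array 1 or coculture array 2, and to 2 without deprived monoculture array 2 or coculture array 1. EIF5B (0.19, limma adjusted p = 0.0388) was not called without deprived monoculture array 1 (0.16, adjusted p = 0.125) or array 2 (0.18, adjusted p = 0.104), or without coculture array 1 (0.13, adjusted p = 0.206) or array 2 (0.20, adjusted p = 0.0689). EIF3K was the member called higher in every alternative. With the larger mean at least 25% above the smaller, 1 member was higher and 6 were lower, against 5.03% and 4.9% of all genes. The comparison shares the deprived monoculture arrays with the test of deprivation, so an unusual level there would enter both with opposite sign.

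Deprived coculture was also compared with complete medium, which differs in glutamine and fibroblasts at once, so their parts cannot be told apart. Of 45 members 14 were higher and 9 lower, against 22.3% and 20.7% of all genes (43% in either direction). With the larger mean at least 25% above the smaller, 7 were higher and 2 lower, against 10.3% and 9.59%. The arrays did not overlap for 28 members, against 52% of all genes. EIF6 was 1.85-fold higher (limma adjusted p = 3.81e-09), EIF1B 1.83-fold (adjusted p = 4.82e-10), EIF3G 1.6-fold (adjusted p = 2.08e-06) and EIF4B 1.37-fold (adjusted p = 1.13e-06). EIF2S3 was 1.36-fold higher (adjusted p = 7.69e-06). EIF2B2 was the member with the largest fall, 1.34-fold (adjusted p = 3e-05), and EIF4E was also lower (-0.32, adjusted p = 0.000359; with the mean of its probes -0.08, adjusted p = 0.0912). The differences of EIF4G1 (0.04, 95% interval -0.10 to 0.19), EIF4A3 (0.11, -0.02 to 0.24) and EIF3K (-0.06, -0.22 to 0.10) were not called. EIF1AX was called lower (-0.33, adjusted p = 0.0358) but not without complete medium array 1 (-0.27, adjusted p = 0.147) or array 2 (-0.28, adjusted p = 0.134), nor without coculture array 2 (-0.30, adjusted p = 0.111) or array 3 (-0.28, adjusted p = 0.12). The count of lower members was 5 without coculture array 3.

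For EIF1AX, EIF5, EIF5A and EIF2AK2 the same array was the extreme one in each group. EIF1AX, the partner of EIF1 in scanning, read 9.40, 9.44 and 10.01 on the 3 deprived arrays, EIF5 8.89, 8.86 and 9.26, EIF5A 11.05, 11.15 and 11.46 and EIF2AK2 9.34, 9.50 and 9.79. In complete medium array 3 was the lowest for all 4 genes, for example 9.93, 9.90 and 9.58 for EIF1AX. In coculture array 1 was the highest for all 4, with 9.51 against at most 9.12 on the other arrays for EIF5 and 9.77, 9.44 and 9.40 for EIF2AK2. For EIF5A the coculture arrays fell in steps, 11.39, 11.25 and 11.02. In EIF3E and EIF4A2, both called lower without glutamine, array 3 was also lowest in complete medium and highest without glutamine. Array 1 was their highest in coculture. Without deprived monoculture array 3, EIF1AX was lower without glutamine (-0.39, limma adjusted p = 0.00143), while with all arrays it was not called (-0.19, adjusted p = 0.214). EIF5 was then higher in coculture than in deprived monoculture (0.33, adjusted p = 0.0232), against 0.21 (adjusted p = 0.191) with all arrays and 0.06 (adjusted p = 0.757) without coculture array 1. What sets these arrays apart was not tested.

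For 15 members there was more than 1 probe. The second bright probe gave differences of the same sign without glutamine for EIF2B4 (0.80 against 0.70), EIF5A2 (0.77 against 0.84), EIF4G1 (0.25 against 0.32), EIF3M (0.26 against 0.30) and EIF3L (0.32 against 0.17). For EIF4A1 the probes disagreed, with -0.11 on the brightest probe and 0.24 on the second. For EIF2AK1 they also disagreed, with -0.17 on the brightest and 0.13 on the dimmer probe. For EIF4G2 the dimmest probe gave -0.37 against 0.00. For EIF4H the second probe was lower in coculture than in complete medium (-0.40) where the brightest was at 0.07. Which transcripts these probes read was not tested. The second probe of EIF6 lay at the floor (7.48), so EIF6 rests on 1 probe, as do EIF1, EIF1B, EIF2B1, EIF3D and EIF3G.

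The promoters of the members were searched for 4 short motifs, to count how many hold each. RefSeq promoters (GRCh38.p14) matched 39 of the 47 members, and the 250 bases before the start listed first for each gene were read on both strands. The motifs were chosen with the results known. TGATGNAA, the core of the element through which ATF4 acts, was in 0 of 39 member promoters and in 3.19% of 27305 promoters. Among the promoters of tested protein-coding genes its share was 1.52%. TGACGTCA, the cyclic AMP response element, was in 0 of 39, in 1.77% of all promoters and in 3.01% of those of tested protein-coding genes. CACGTG, the E-box read by MYC and MAX and by TFEB and its relatives, was in 11 of 39 (28.2%) and in 6.49% of all promoters, or 9.06% of those of tested protein-coding genes. CTTCCG, the core of ETS factor sites, was in 15 of 39 (38.5%), 16.8% and 28.1%. None of the 4 motifs is contained in another.

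Of the 11 members with CACGTG, 6 were higher, 1 was lower and 4 were not called without glutamine. Of 26 tested members without it 8 were higher and 3 lower, against 30% and 24.3% of all genes. Whether the motif goes with the calls was not tested. The stretches around the E-box are shown for the 7 of these 11 that were called. EIF2B3, EIF2AK2, EIF4E and EIF4H hold the same letters, were not called and are not shown. Capitals mark CACGTG, and 20 bases stand on either side where the window allows.
EIF1B, chr3:40309633-40309678, plus strand: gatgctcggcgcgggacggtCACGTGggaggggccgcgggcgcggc
EIF5A2, chr3:170908774-170908844, minus strand: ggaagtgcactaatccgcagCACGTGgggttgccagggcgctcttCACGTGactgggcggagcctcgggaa
EIF4G1, chr3:184314442-184314564, plus strand: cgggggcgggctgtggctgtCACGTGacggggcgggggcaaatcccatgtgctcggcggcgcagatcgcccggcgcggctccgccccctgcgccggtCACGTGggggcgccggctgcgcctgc
EIF3F, chr11:7987249-7987294, plus strand: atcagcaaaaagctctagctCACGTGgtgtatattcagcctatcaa
EIF4B, chr12:53006414-53006455, plus strand: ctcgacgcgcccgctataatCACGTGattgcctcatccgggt
EIF4A3, chr17:80147224-80147269, minus strand: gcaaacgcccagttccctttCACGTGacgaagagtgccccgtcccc
EIF3K, chr19:38619065-38619110, plus strand: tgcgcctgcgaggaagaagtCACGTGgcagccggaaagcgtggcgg

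The E-box began 54 bases before the start in EIF1B, 22 in EIF4B, 68 in EIF3F, 103 in EIF3K and 121 in EIF4A3. EIF5A2 held 2 copies, at 187 and 162 bases, and EIF4G1 2 copies, at 144 and 67. EIF6, whose log2 rise was 1.40 against 0.84 for EIF5A2, held none in this window. EIF1 (0.79) was not among the members with a match, which were sought only in the 39 promoters found. For 8 members several starts are listed, and only the first was read. EIF3K, which was lower without glutamine, held the same letters as EIF1B, which was higher. A match is a run of letters and was not tested as a binding site.

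Genes that act on the factors were read from lists of their regulators and partners. Of 12 tested regulators of eIF2, 3 were higher and 5 lower without glutamine, against 30% and 24.3% of all genes. PPP1R15A, which targets protein phosphatase 1 to eIF2 and so undoes the kinases' work, read 10.45 ± 0.05 (SD, n = 3) in complete medium, 12.97 ± 0.02 without glutamine and 11.94 ± 0.03 in coculture. It was 5.74-fold higher without glutamine (limma adjusted p = 3.09e-18) and 2.03-fold lower in coculture than in deprived monoculture (adjusted p = 5.34e-11). ATF4 mRNA stood at 13.50 ± 0.04, 13.89 ± 0.04 and 13.85 ± 0.05, so it was 1.31-fold higher without glutamine (limma adjusted p = 2.59e-06) and did not pass the test in coculture (-0.04, adjusted p = 0.678). Of the 3 catalytic subunits of that phosphatase, PPP1CC was 1.68-fold and PPP1CB 1.30-fold lower without glutamine, while PPP1CA was not called (log2 difference 0.08, adjusted p = 0.291). PRKRA, an activator of PKR, was 1.31-fold lower. GCN1, the ribosome-bound activator of GCN2, was 1.19-fold higher (adjusted p = 0.00996), but not without complete medium array 2 (0.19, adjusted p = 0.0701) or deprived monoculture array 1 (0.19, adjusted p = 0.0612).

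Of 19 tested regulators of cap binding, 7 were higher and 2 lower without glutamine, against 30% and 24.3% of all genes. In coculture 1 was higher and 6 were lower than in deprived monoculture, against 12.7% and 15.1% of all genes. MKNK2, a kinase that phosphorylates EIF4E, rose from 9.45 ± 0.06 (SD, n = 3) to 11.79 ± 0.16 and stood at 10.96 ± 0.11 in coculture. This was a 5.07-fold rise without glutamine (limma adjusted p = 1.41e-15) and a 1.77-fold lower level in coculture (adjusted p = 1.26e-07). CYFIP2, a relative of the EIF4E-binding CYFIP1, was 1.85-fold higher and MTOR 1.28-fold higher, while RPS6KB1, the S6 kinase that acts on EIF4B, was 1.21-fold lower. EIF4EBP1, the repressor that holds EIF4E, read 8.10 ± 0.09, 8.20 ± 0.09 and 8.36 ± 0.13 and was not called for deprivation (0.10, adjusted p = 0.25) or coculture (0.16, adjusted p = 0.1). Without coculture array 1 it was called higher in coculture than in deprived monoculture (0.22, adjusted p = 0.033). With all arrays EIF4EBP1 was higher in coculture than in complete medium (0.26, limma adjusted p = 0.00494). Its relative EIF4EBP2 was higher without glutamine (0.26, adjusted p = 0.00362) and lower in coculture than in deprived monoculture (-0.28, adjusted p = 0.00455). EIF4EBP3 was called in neither (0.03 and -0.04). PAIP2, an inhibitor of the poly(A)-binding protein, was 1.26-fold lower in coculture (adjusted p = 0.000484), but with the mean of its probes it was not called (-0.12, adjusted p = 0.0854).

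Among 11 accessory initiation factors 4 were higher and 5 lower without glutamine, against 30% and 24.3% of all genes. DENR, which with MCTS1 serves reinitiation and ribosome recycling, was 2.02-fold higher (11.08 ± 0.15 against 12.09 ± 0.03), whereas MCTS1 was 1.32-fold lower. BZW2, an eIF5 mimic, was 2.32-fold lower (limma adjusted p = 8.49e-12), and 1.40-fold higher in coculture than in deprived monoculture. ABCE1, which splits ribosomes, was 1.39-fold lower, and ABCF1, which associates with eIF2, 1.29-fold higher. Of 15 elongation and release factors 3 were higher and 2 lower, against the same shares. EEF1D, the delta subunit of the exchange factor of eEF1A, was 1.45-fold lower without glutamine and 1.49-fold higher in coculture. EEF2, the translocase, was 1.35-fold higher, and the release factors GSPT2 and ETF1 were 1.45-fold and 1.38-fold higher.

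**Figure D4:**
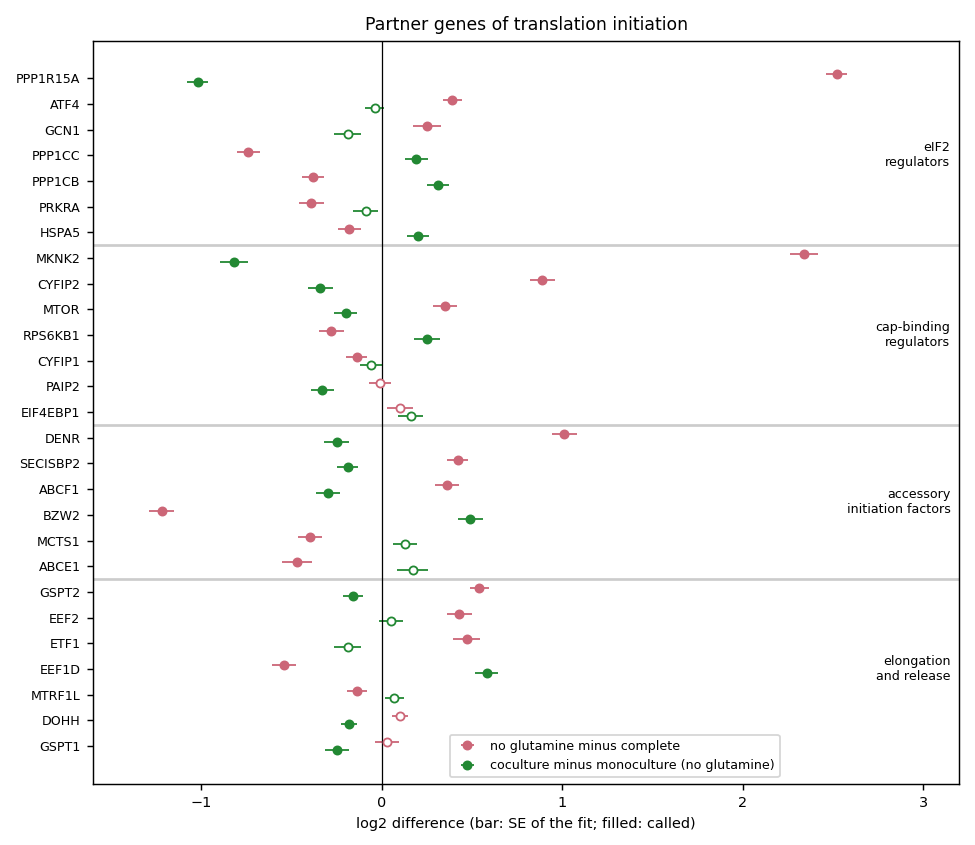
Log2 differences of named partner genes without glutamine against complete medium (red) and in coculture against deprived monoculture (green); filled points were called and bars are the SE of the fit. PPP1R15A and MKNK2 lie farthest to the right, and BZW2 farthest to the left, without glutamine.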

How the data were processed

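Per the submitters' processing notes, the authors used lumi; the sources used here do not give its version or settings, nor whether the deposited log2-like values are plain log2 or variance-stabilised. The deposited arrays had nearly equal quantiles, so differences are relative to the other probes. Of 34476 probes, 26366 had 1 gene symbol, 3 several and 8107 none; 26333 were found in the RefSeq table and 0 symbols changed. A gene was read by its probe with the highest mean, and 10862 genes with a mean above the median of all probes, 7.46, entered a linear model (limma 3.58.1 under R 4.3.3; lmFit, then eBayes with a trend) over all 9 arrays with 1 mean per group. P-values were two-sided and adjusted by Benjamini-Hochberg over all genes, and called under 0.05; the prior added 13.3 to 6 residual degrees of freedom. The number of arrays limits the precision. The fit was tested on simulated data. Python 3.11.15 made tables and plots.

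Members, lists and tests were chosen with earlier results of these data known. Every member could be named; values on each array were given for eIF2 subunits, kinases, eIF2B, EIF4E, EIF4G and EIF4A genes and for the 8, 8 and 4 largest called differences without overlap in the 3 comparisons. From each list, up to 3 called genes per direction, and ATF4, PPP1R15A and EIF4EBP1, could be named. Any others were named after their values were seen. Alternatives are listed in the closing section. Same-numbered arrays did not deviate together (correlations from -0.259 to 0.213, against -0.239 to 0.346 for arrays of other numbers), and the fit did not pair them. With 3 arrays per group this cannot show that the numbers are unpaired.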

Additional observations from a re-analysis of the deposited data

How the results depend on the processing

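Each difference was recomputed under 18 alternatives: no filter or a stricter one on dim probes, the mean of a gene's probes, quantile normalization, median centring, no trend, only the groups compared, array weights, a replicate block, and each of the 9 arrays left out. Of the members called for deprivation, 22 of 24 were called in every alternative they entered (exceptions EIF3L and EIF4E2), for coculture 11 of 16, and for coculture against complete medium 14 of 23. EIF4H reversed between coculture and complete medium with the mean of its probes (-0.17, adjusted p = 0.0296); that mean takes in its second probe. Requiring the larger mean to be at least 25% above the smaller left 11 members higher and 2 lower for deprivation (1696 and 1453 of all genes), 1 and 6 for coculture (546 and 532), and 7 and 2 for coculture against complete medium (1118 and 1042), since most differences were small. Leaving out 1 array gave 1 to 4 higher and 10 to 12 lower members for coculture, 13 to 15 and 5 to 9 for coculture against complete medium, and 16 to 18 and 6 to 8 for deprivation. Of all 10862 genes it left 1131 to 1377 higher and 1326 to 1632 lower for coculture. For coculture against complete medium these were 2135 to 2504 and 1965 to 2302, and for deprivation 2987 to 3238 and 2440 to 2629. With the replicate block 18 members were higher and 6 lower for deprivation, 3 and 11 for coculture, and 14 and 8 for coculture against complete medium. Over all genes the block gave, in the same order, 3194 and 2608, 1317 and 1584, and 2361 and 2202. Levels near the floor understate differences.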
